A study of Mus musculus with 30 samples.

Results

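MEIS, PBX and PKNOX factors are homeodomain proteins, and the genes Meis1, Meis2, Meis3, Pbx2, Pbx3, Pbx4, Pknox1 and Pknox2 were followed through nuclear RNA-seq of mouse embryonic stem (ES) cells that lose the chromatin remodeler SRCAP. They were taken as a list of 8 names, by gene identifier, from 55401 genes in 4 count tables, and the list does not hold every gene of the 3 families. SYAT cells are CGR8 ES cells that carry SRCAP fused to YPet and an auxin-inducible degron (AID) on both alleles and express the plant F-box protein OsTir1. Indole-3-acetic acid (IAA, 500 µM) triggers degradation of the fusion, and auxinole, an inhibitor of OsTir1, was given to the control cells. The time course held control SYAT cells and SYAT cells after 2, 4, 6 and 8 h of IAA. Untagged CGR8 cells were compared with and without 4 h of IAA. A further set of SYAT cells, with a mitotic degron on mCherry, was sorted by Hoechst and mCherry into early G1 (EG1) and late G1 (LG1), as control or after 1 h of IAA. In the last set, SYAT cells expressed wtSRCAP-mCherry, or cdSRCAP-mCherry with a mutated ATPase site, from a doxycycline-inducible promoter (1 µg/mL, 24 h), as control or with 4 h of IAA. These 15 conditions held 2 libraries each, from cells in serum and leukemia inhibitory factor, and the study's methods state that duplicates were grown and treated separately. SYAT cells go back to 1 homozygous clone with OsTir1 under the EF1a promoter, and wtSRCAP and cdSRCAP cells are 1 clone each, so a difference between wtSRCAP and cdSRCAP cells cannot be told apart from a difference between 2 clones. Total exon counts per library ranged from 45617992 to 60214521 in CGR8 cells, from 17540823 to 22873893 in the time course, from 19740778 to 26672402 in sorted cells and from 12236493 to 26369773 in wtSRCAP and cdSRCAP cells.

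As background, these proteins share the TALE homeodomain, in which a loop of additional residues lies between helices of the DNA-binding fold. PBX proteins bind DNA together with MEIS or PKNOX (also called PREP) proteins, and also with HOX proteins, whose choice of sites they sharpen. MEIS and PKNOX proteins contact PBX through the same surface and hold it in the nucleus. In development Meis1 and Meis2 take part in patterning of limb, hindbrain, eye and heart, and Meis1 is known for its part in blood stem cells and leukemia. SRCAP is the ATPase of a complex that exchanges H2A for the variant H2A.Z in nucleosomes, mainly at promoters and enhancers, and the study asked how gene transcription depends on SRCAP and on this activity.

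The promoters of the member with the largest difference, Meis1, and of the member with the highest level, Pbx2, are shown with each CpG in capitals, since H2A.Z is found at many CpG-rich promoters. Both are RefSeq sequences of GRCm38.p6, 5′ to 3′ on the strand of the gene, and end before the first annotated exon base in the window. Of the 8 genes, 5 had an entry (Meis1, Meis2, Meis3, Pbx2 and Pbx4).
Meis1, chr11:19018986-19019219, minus strand: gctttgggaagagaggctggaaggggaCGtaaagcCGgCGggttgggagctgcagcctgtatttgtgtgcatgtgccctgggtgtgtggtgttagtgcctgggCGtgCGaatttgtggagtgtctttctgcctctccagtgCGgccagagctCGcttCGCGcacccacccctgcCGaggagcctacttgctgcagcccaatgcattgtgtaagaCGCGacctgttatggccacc
Pbx2, chr17:34592009-34592258, plus strand: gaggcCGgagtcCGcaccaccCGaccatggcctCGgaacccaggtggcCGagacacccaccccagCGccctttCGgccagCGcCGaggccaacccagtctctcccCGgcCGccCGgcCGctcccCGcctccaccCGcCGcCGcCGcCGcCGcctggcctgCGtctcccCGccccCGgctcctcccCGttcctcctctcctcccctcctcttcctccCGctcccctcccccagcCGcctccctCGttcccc
The Meis1 stretch of 234 bases held 12 CpG and the Pbx2 stretch of 250 bases held 27. Over the whole windows of 300 bases (250 before the start and 50 after it), Pbx2 had 29 CpG at 76% GC, Meis3 21 at 66.7%, Pbx4 19 at 59.3%, Meis1 15 at 58.3% and Meis2 13 at 51%. The median of all 32544 mouse promoters in the table was 7 CpG at 53% GC, so each of the 5 lay above it in CpG count. The motifs of these factors were searched on both strands: TGACAG (MEIS or PKNOX), TGATTGAC (PBX with MEIS or PKNOX) and TGATTGAT (PBX with HOX), the last pair differing in their final letter alone. They occurred in 19.1%, 0.774% and 0.750% of all promoters of that length, and in none of the 5 windows.

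The genes differ widely in size, which bears on how much of their signal is intronic. In GRCm38, Meis1 spans chr11:18879817-19018985 (minus strand), Meis2 chr2:115863064-116065839 (minus) and Meis3 chr7:16175090-16186504 (plus). Pbx2 spans chr17:34591266-34597400 (plus), Pbx3 chr2:34171457-34373142 (minus) and Pbx4 chr8:69832491-69872292 (plus), while Pknox1 lies at chr17:31564734-31607693 (plus) and Pknox2 at chr9:36890982-37147407 (minus). Gene length thus runs from 6135 bases for Pbx2 to 256426 for Pknox2. Exons of Meis1 overlap Gm37818 on the same strand by 1029 bases and the antisense gene Gm16140 by 896, those of Pbx2 overlap Gpsm3 by 227 and those of Pknox1 the antisense AC166172.4 by 155. Whether the counting used strand is not given in the sources used here, so reads of these overlapping genes cannot be told apart.

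In control SYAT cells Pbx2, a broadly expressed PBX gene, and Pknox1, the broadly expressed PKNOX gene, held most of the exonic signal. Levels are given as CPM, the count scaled to a common library size, per kb of merged exon. Pbx2 stood at 9.61 and 8.37 in the 2 control libraries and Pknox1 at 3.64 and 3.91. Pbx3 followed with a mean of 1.69 ± 0.215 (SD, n = 2), Pbx4 with 1.17 ± 0.166 and Meis3 with 0.826 ± 0.118. Meis2 (0.259 ± 0.0805) and Meis1 (0.245 ± 0.0412) did not differ beyond their spread, and Pknox2 was lowest at 0.0967 ± 0.0294. Every other neighbouring pair in this order had non-overlapping libraries. Dividing by the longest transcript instead gave 10.7, 6.16, 3.61, 1.66, 1.36, 0.567, 0.342 and 0.275 for Pbx2, Pknox1, Pbx3, Pbx4, Meis3, Meis2, Meis1 and Pknox2, where Pbx4 overlapped Meis3 and Meis1 overlapped Pknox2.

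Pbx2 and Pknox1 were first and second in all 6 control groups. Pknox2 was last in each with merged exons, whereas with the longest transcript Meis1 was last in EG1, LG1 and wtSRCAP control. The tables were scaled separately, so levels of different tables are set side by side here and were not tested. Pbx2 means per kb lay between 7.50 in cdSRCAP and 11.6 in EG1 cells, and Pknox1 means between 2.68 in LG1 and 4.73 in CGR8 cells. With merged exons, Pbx4 stood above Pbx3 in CGR8 cells (1.33 against 1.08) and in cdSRCAP cells (1.38 against 1.07, with overlapping libraries), and below it elsewhere. This order turned on the length used. With the longest transcript Pbx4 was below Pbx3 in CGR8 cells (1.89 against 2.32) and in cdSRCAP cells (1.95 against 2.28, with overlapping libraries). Meis1 had a control mean of 0.166 in wtSRCAP and 0.445 in cdSRCAP cells, and of 0.461 in EG1 and 0.283 in LG1 cells.

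**Figure D1:**
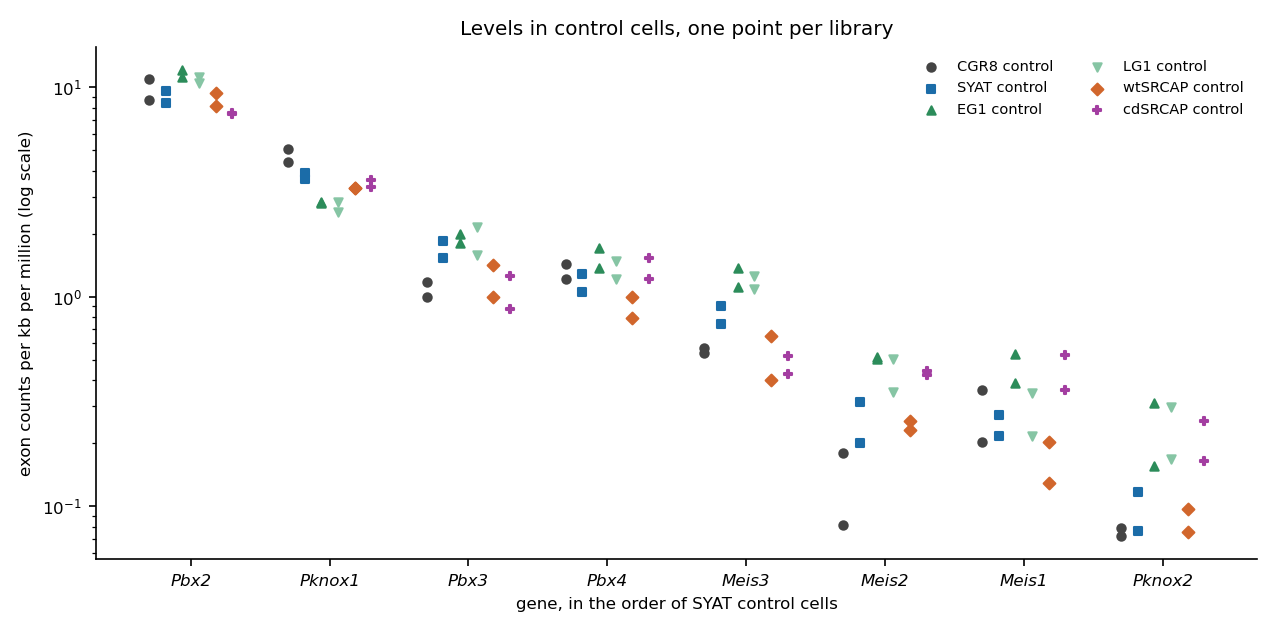
Exon level of the 8 genes in the 6 control groups, as CPM per kb of merged exon on a log axis; points are the 2 libraries of a group. Pbx2 and Pknox1 lie at the top in every group and Pknox2 lies lowest by its mean.

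Upon IAA in SYAT cells no gene of the list passed the test after adjustment. Both libraries of Meis1 and of Meis2 lay above both control libraries at every time, and those of the other 6 genes did not. How many of all genes show such a separation was not counted, so it cannot be called particular to Meis1 and Meis2. Values below are counts scaled by trimmed-mean (TMM) library size, and log2 fold changes (IAA over control) carry their standard error from the quasi-likelihood fit of edgeR over all 19205 genes tested. Meis1, a MEIS partner of PBX, gave 47 and 59 scaled counts without IAA, 65 and 70 at 2 h, 100 and 99 at 4 h, 116 and 93 at 6 h and 141 and 130 at 8 h. All 8 IAA libraries lay above both control libraries. The deposited counts behind these values are low, 45 and 70 in control and 141 and 155 at 8 h. The log2 fold change of Meis1 was 0.34 ± 0.26 at 2 h (unadjusted p = 0.208), 0.91 ± 0.25 at 4 h (unadjusted p = 0.00471), 0.98 ± 0.25 at 6 h (unadjusted p = 0.00316) and 1.35 ± 0.25 at 8 h (unadjusted p = 0.000301). At 8 h this is 2.56-fold, with a 95% interval of 0.79 to 1.91 on the log2 scale. After Benjamini-Hochberg adjustment over all genes it stood at adjusted p = 0.269, 0.117 and 0.0722 at 4, 6 and 8 h. Meis1 was therefore not called at any time, a call being an absolute log2 fold change over 0.5 with adjusted p under 0.05. The 8 h call turned on the method: over the alternatives run, its adjusted p ran from 0.00317 to 0.506, with the difference between 1.19 and 1.54.

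Meis2, the other PBX partner with raised values, had 50 and 78 scaled counts in control, 86 and 143 at 2 h, 112 and 150 at 4 h, 110 and 118 at 6 h and 110 and 165 at 8 h. Here too each IAA library lay above both control libraries, but libraries of a group were further apart than for Meis1. Its log2 fold change was 0.84 ± 0.35 at 2 h (unadjusted p = 0.0350), 1.04 ± 0.35 at 4 h (unadjusted p = 0.0133), 0.83 ± 0.35 at 6 h (unadjusted p = 0.0381) and a fold of 2.15 at 8 h (unadjusted p = 0.00946, adjusted p = 0.200, log2 interval 0.33 to 1.87). The difference between the times was not tested. The 4 times share their control libraries, so they are not independent of each other.

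Meis3, the third MEIS gene, had 59 and 48 scaled counts in control and 35 and 27 at 8 h, with 53 and 43 at 2 h, 44 and 27 at 4 h and 51 and 53 at 6 h between them. At 8 h both libraries lay below both control libraries (log2 fold change -0.79 ± 0.35, unadjusted p = 0.0460, adjusted p = 0.357), and at 6 h they did not.

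PBX and PKNOX genes, which code for the shared partner and for the MEIS-like factors, showed no difference with unadjusted p under 0.05 in the time course. Pbx2 lay between 582 and 779 scaled counts in all 10 libraries, and its log2 fold changes ran from -0.01 at 2 h to 0.13 at 8 h. The 95% interval at 8 h, -0.26 to 0.51, leaves room for a modest difference. Pknox1 had 515 and 555 in control and 623 and 636 at 8 h (0.23 ± 0.14, interval -0.08 to 0.55). Pbx3 went from 230 and 192 to 209 and 200 (-0.04 ± 0.29) and Pbx4 from 48 and 58 to 38 and 51 (-0.24 ± 0.38). Pknox2, a PKNOX gene with narrow expression, had between 5 and 24 deposited exon counts per library, and its 8 h interval of -1.15 to 0.98 is too wide to read at this depth.

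**Figure D2:**
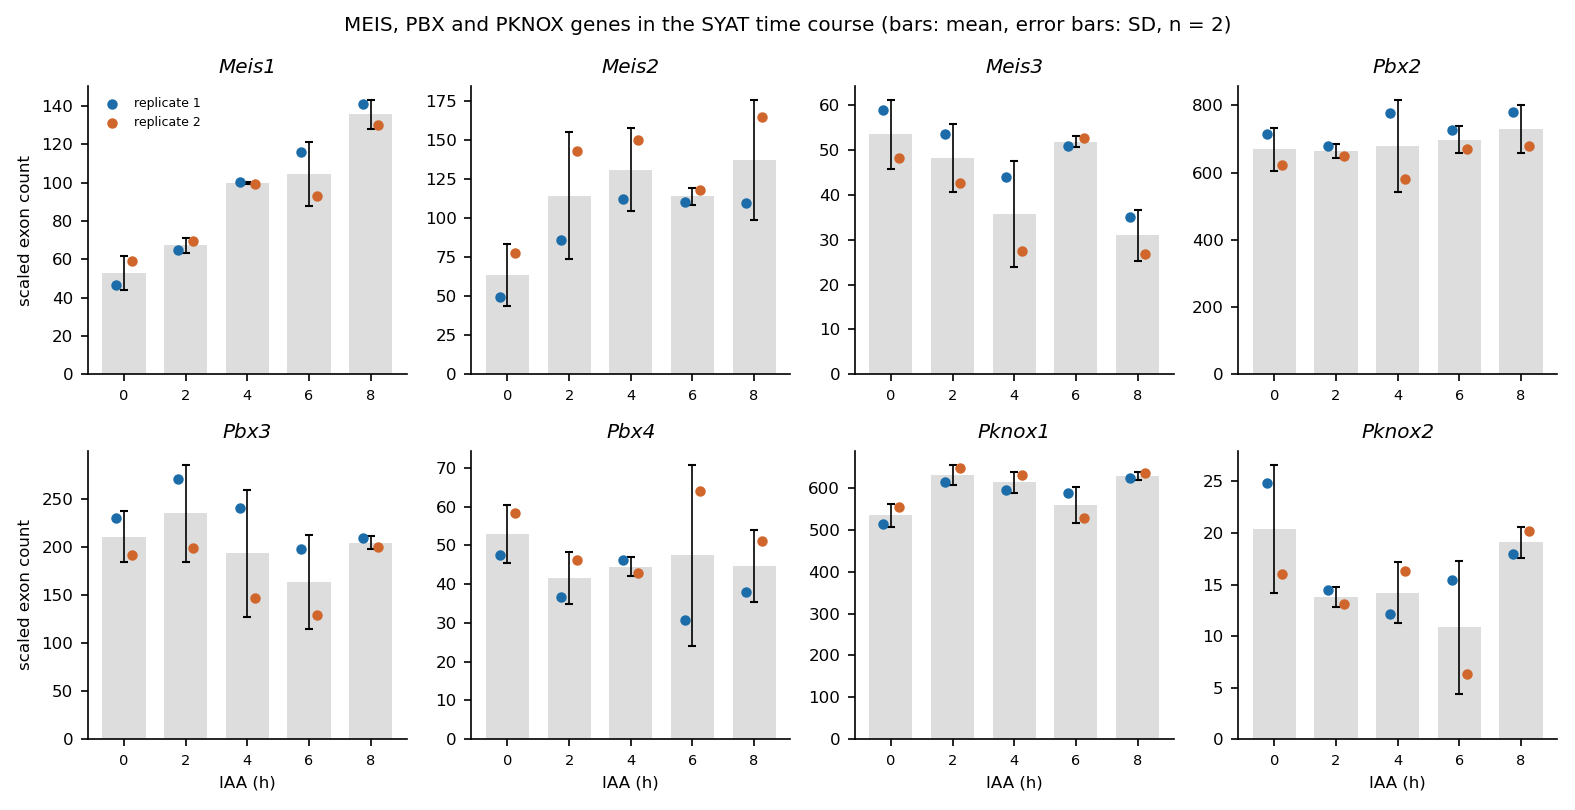
Scaled exon counts of the 8 genes in SYAT cells against hours of IAA, with 0 h the control; bars are means, error bars the SD and points the 2 libraries. Meis1 and Meis2 have all their IAA points above both control points.

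Counted over the list, an unadjusted p below 0.05 was reached by 1 of 8 genes after 2 h, by 2 after 4 h, by 2 after 6 h and by 3 after 8 h, against 3.92%, 9.09%, 16.1% and 13.6% of all genes tested. The share over all genes grew with time as well, so the list is close to it at 6 h. With the call rule the list had none at any time, against 0%, 0%, 0.0677% and 0.00521% of all genes (0, 0, 13 and 1 genes). The median log2 fold change of the 8 genes was 0.07, -0.05, 0.01 and 0.04, beside 0.00, 0.02, 0.01 and 0.03 for all genes, so the middle of the list lay near that of all genes. Srcap exons had log2 fold changes of 0.13 to 0.32 over the times with no p under 0.05, and its intron column had 0.21, 0.31, 1.02 and 0.35, the third with an unadjusted p = 0.0175. The degron acts on the protein, so this says nothing of depletion.

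In CGR8 cells, which carry no degron, 4 h of IAA was compared with control to see what IAA does without SRCAP loss. Meis1 had 112 and 199 scaled counts in control and 285 and 236 with IAA, so the groups did not overlap here either. Its log2 fold change was 0.74 ± 0.33 (unadjusted p = 0.0522, adjusted p = 0.544, interval -0.01 to 1.48), beside 0.91 in SYAT cells at the same time. This value rests on the spread of the control pair: without control replicate 2 it was 1.22 with adjusted p = 0.00429, and without control replicate 1 it was 0.40. Values of CGR8 and SYAT cells stand in separate tables, and the difference between them was not tested. Meis2 had 52 and 114 in control and 129 and 103 with IAA (0.48 ± 0.44), with overlapping libraries.

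Pbx4, the PBX gene best known from testis, had 143 and 168 scaled counts in control CGR8 cells and 60 and 105 with IAA, a log2 fold change of -0.91 ± 0.37 (unadjusted p = 0.0388, adjusted p = 0.540). The other 5 genes, Meis3, Pbx2, Pbx3, Pknox1 and Pknox2, lay between -0.34 and 0.22. Thus 1 of 8 genes had an unadjusted p under 0.05, beside 9.16% of all 20250 genes, and none was called, beside 0.00988%.

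Cells that express wtSRCAP or cdSRCAP were used to ask whether SRCAP's ATPase is needed. Meis1 values were larger in cdSRCAP than in wtSRCAP cells with and without IAA. It had 39 and 25 scaled counts in wtSRCAP control, 41 and 35 in wtSRCAP with IAA, 102 and 70 in cdSRCAP control and 123 and 115 in cdSRCAP with IAA, so no cdSRCAP library came down to the level of any wtSRCAP library. The log2 fold change of cdSRCAP over wtSRCAP was 1.42 ± 0.40 in control (unadjusted p = 0.00562, adjusted p = 1.00) and 1.66 ± 0.40 with IAA (unadjusted p = 0.00215, adjusted p = 0.951), and neither was called. In control cells the endogenous SRCAP fusion was still present in both lines. The response to IAA was 0.24 ± 0.41 in wtSRCAP (interval -0.68 to 1.15) and 0.47 ± 0.38 in cdSRCAP cells (interval -0.37 to 1.32). These wide intervals hold no difference as well as the 0.91 of SYAT cells at 4 h. The difference of the responses was 0.24 ± 0.56 (unadjusted p = 0.679, interval -1.01 to 1.49).

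Sums of marker genes were compared between the same groups. In control cells those of ES cell, neural, trophectoderm, 2-cell-like and fibroblast markers overlapped between the lines. Mesoderm sums did not (145 and 102 in wtSRCAP, 148 and 150 in cdSRCAP). With IAA the ES cell, 2-cell-like and fibroblast sums were larger in both cdSRCAP libraries. Primitive endoderm markers did not overlap in either comparison. Their summed scaled counts (8 genes) were 1788 and 3358 in wtSRCAP control, 2815 and 3783 in wtSRCAP with IAA, 4319 and 5777 in cdSRCAP control and 5637 and 5657 in cdSRCAP with IAA, with no marker at 0 throughout. Of the 5 markers tested, Gata4 and Lama1 had an unadjusted p under 0.05 in control cells (1.76 and 1.00) and Lama1 with IAA (0.79), beside 3.82% and 5.03% of all genes, and 0 were called. Gata4 was lower upon IAA in cdSRCAP cells (-1.91, unadjusted p = 0.0182). Their part in the Meis1 result was not tested, and fewer or more cells of a type cannot be told apart from less or more RNA per cell in bulk libraries.

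Of the remaining MEIS genes, Meis2 had 51 and 57 scaled counts in wtSRCAP control, 45 and 103 in wtSRCAP with IAA, 98 and 94 in cdSRCAP control and 102 and 93 in cdSRCAP with IAA. The control groups did not overlap (0.83 ± 0.41, unadjusted p = 0.0755), whereas with IAA they did (0.37 ± 0.41). Meis3 stayed between 23 and 38 in all 8 libraries.

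Pknox1 and Pbx2, the members with the highest levels, had larger values with IAA in cdSRCAP cells. Pknox1 went from 461 and 424 to 692 and 623 (log2 fold change 0.57 ± 0.21, unadjusted p = 0.0205, adjusted p = 0.766). In wtSRCAP cells it went from 421 and 421 to 572 and 536 (0.39 ± 0.21, unadjusted p = 0.0863). Pbx2 went from 505 and 498 to 810 and 636 in cdSRCAP cells (0.53 ± 0.23, unadjusted p = 0.0463, adjusted p = 0.878) and from 627 and 546 to 793 and 626 in wtSRCAP cells (0.27 ± 0.23). The differences between the lines, 0.18 ± 0.29 for Pknox1 and 0.26 ± 0.32 for Pbx2, did not pass the test (unadjusted p = 0.556 and unadjusted p = 0.451). Pknox2 had 14 and 18 scaled counts in wtSRCAP control against 48 and 31 in cdSRCAP control (1.26 ± 0.55, unadjusted p = 0.0474, adjusted p = 1.00), on at most 44 deposited counts. Pbx3 and Pbx4 had no p under 0.05.

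**Figure D3:**
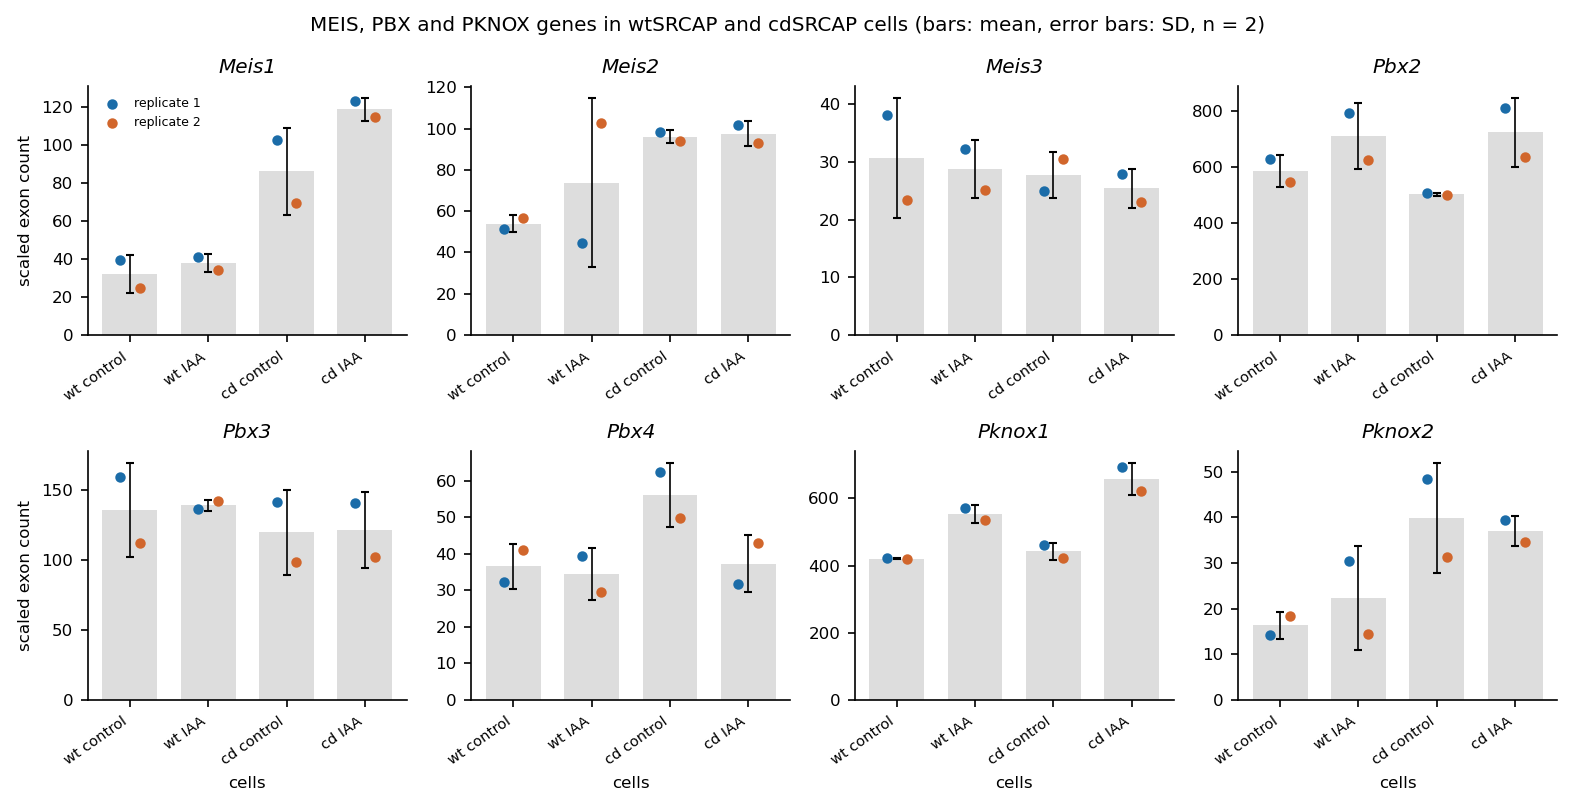
Scaled exon counts of the 8 genes in wtSRCAP and cdSRCAP cells, control or 4 h of IAA; bars are means, error bars the SD and points the 2 libraries. For Meis1 every cdSRCAP point lies above every wtSRCAP point.

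Unadjusted p under 0.05 was found for 0 of 8 genes upon IAA in wtSRCAP cells and for 2 in cdSRCAP cells, for 2 between the lines in control and for 1 with IAA, and for 0 in the difference of the responses. The shares over all 19111 genes were 7.4%, 5.64%, 3.82%, 5.03% and 0.785%. No gene of the list was called in any of these, where 0.00523%, 0%, 0%, 0.00523% and 0% of all genes were.

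In sorted cells no difference in the list was detectable after 1 h of IAA at this depth, and none of the 8 genes was called in EG1 or LG1 or in the difference between them. Here the study's looser rule applied, an absolute log2 fold change over 0.25 with unadjusted p under 0.05, which 1.22%, 1.02% and 0.699% of 21020 genes passed. Meis1 had 127 and 94 scaled counts in EG1 control and 92 and 91 after IAA (-0.27 ± 0.30), and 84 and 52 in LG1 control and 68 and 49 after IAA (-0.21 ± 0.32). Meis2 had 142 and 138 in EG1 control and 123 and 104 after IAA (-0.30 ± 0.27). The other IAA differences in the list lay between -0.18 and 0.10. Between phases, Meis1 differed by 0.70 ± 0.31 (EG1 over LG1 control, log2) (unadjusted p = 0.0517), with EG1 above LG1 in both libraries, and 0 of 8 genes were called, beside 1.44% of all genes. Meis1 passed that rule with RLE size factors and without the low-count filter, and also without EG1 control replicate 2, LG1 control replicate 1 or LG1 IAA replicate 1.

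**Figure D4:**
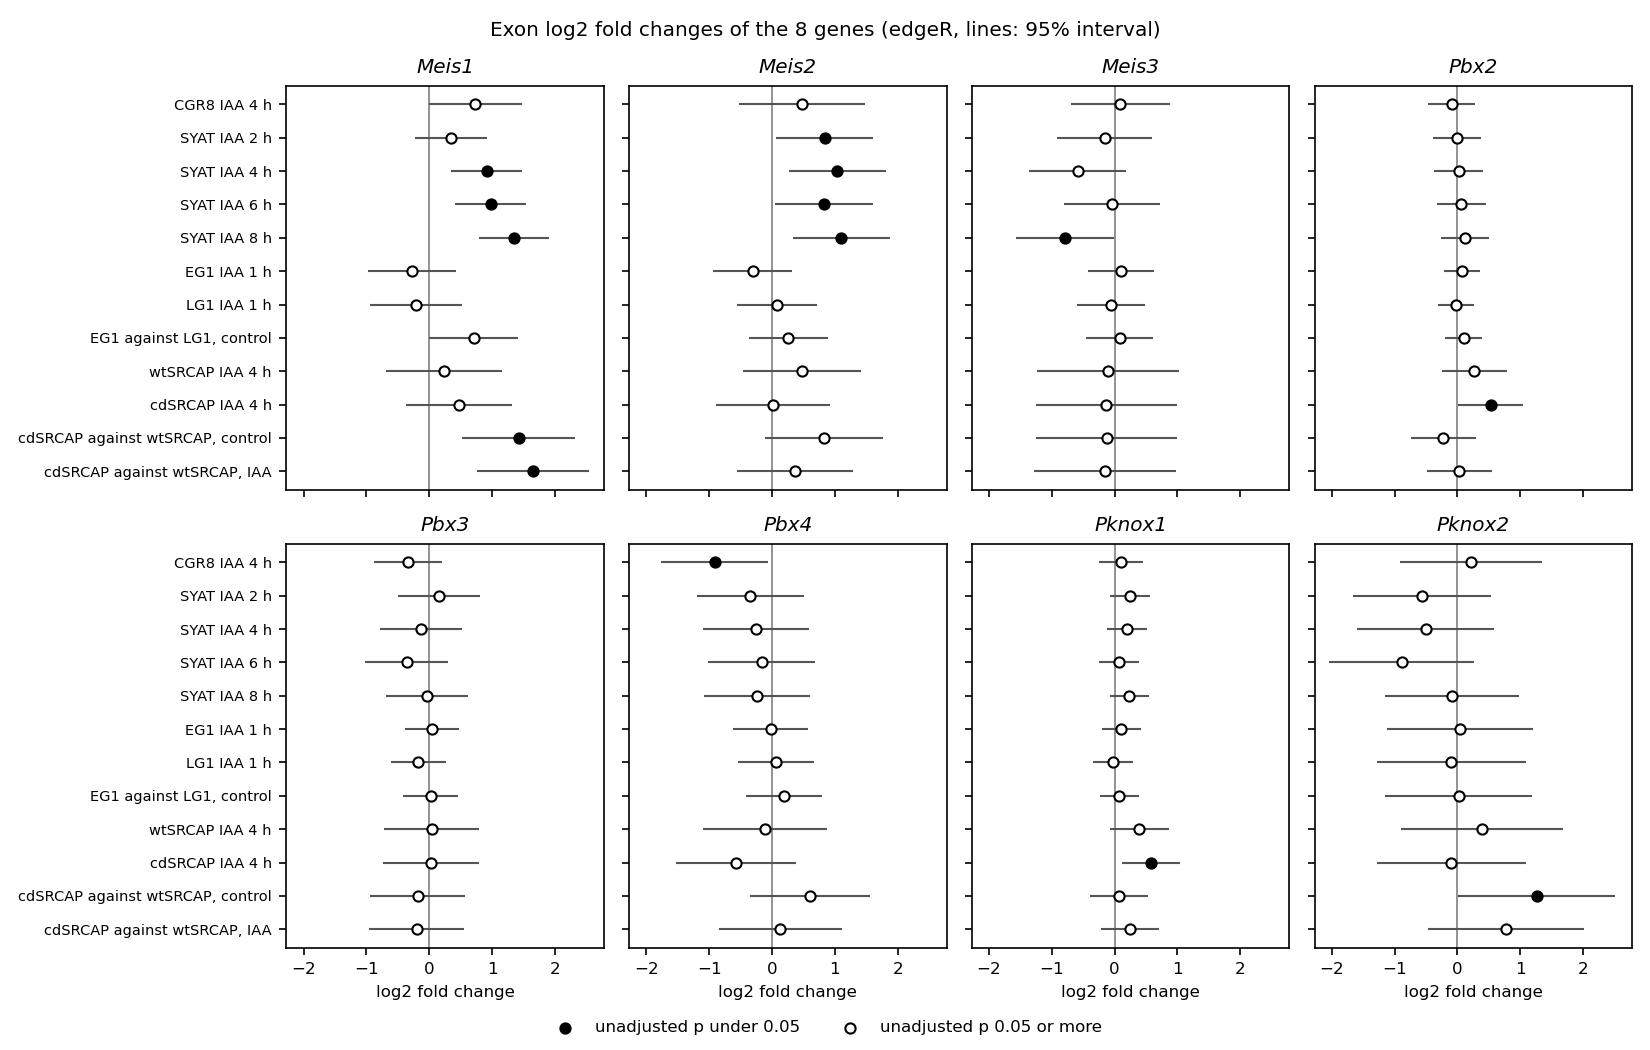
Exon log2 fold change of the 8 genes in 12 comparisons with 95% intervals; filled points have an unadjusted p under 0.05 and the line at 0 is no difference. In the SYAT time course Meis2 is filled to the right at every time and Meis1 from 4 h on, and Meis1 also between cdSRCAP and wtSRCAP cells.

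Over all 14 exon comparisons, 14 of 112 tests had an unadjusted p under 0.05, 12 with a higher and 2 with a lower value (Meis3 at 8 h in SYAT cells and Pbx4 in CGR8 cells), and 0 were called by edgeR. The shares over all genes are those given with each comparison, and the comparisons share libraries, among them the control pair of the 4 SYAT times. DESeq2 called 1, Meis1 at 8 h in SYAT cells.

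Intron columns were read beside the exons, since introns of nuclear RNA come largely from unspliced transcripts. They need care here. In the tables of CGR8, LG1, wtSRCAP and cdSRCAP cells almost no gene with a single exon had intron counts (1 of 1862, 2 of 2085 and 1 of 1069 such genes). In the time course 692 of 1302 (53.1%) had them and in EG1 cells 991 of 2215 (44.7%), so these columns hold exonic reads as well. Pknox1, with 0 intron counts in all SYAT and EG1 libraries, could not be read there, and Pbx2 counts in these columns were close to its exon counts. EG1 and LG1 introns were not compared with each other.

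Meis1 introns followed its exons in the time course, with 122 and 169 scaled counts in control, 192 and 248 at 2 h, 282 and 458 at 4 h, 408 and 255 at 6 h and 319 and 518 at 8 h. Each IAA library lay above both control libraries. The log2 fold changes were 0.59 ± 0.37, 1.34 ± 0.38 (unadjusted p = 0.00748), 1.18 ± 0.38 (unadjusted p = 0.0138) and 1.52 ± 0.38 (unadjusted p = 0.00387, adjusted p = 0.164). With the exon count subtracted from the intron count they were 1.32, 1.13 and 1.22 at 4, 6 and 8 h. Meis2 introns had 166 and 293 in control and 314 and 839 at 8 h (1.33 ± 0.53, unadjusted p = 0.0365, adjusted p = 0.334), libraries that differ from each other more than the control pair does.

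Pbx3, whose exons did not differ, had 555 and 533 scaled intron counts in control and 654 and 1326 at 8 h (0.86 ± 0.35, unadjusted p = 0.0396, adjusted p = 0.346). Pknox2 had 0 intron counts in all control and 2 h libraries, 0 and 4 at 4 h, 25 and 0 at 6 h and 25 and 124 at 8 h, too uneven for a fold change. An unadjusted p below 0.05 was reached in introns by 0, 1, 1 and 4 of 7 tested genes at these times. The shares of all 14719 genes were 5.13%, 9.5%, 14.5% and 13.5%. Pknox2, with its control counts of 0, was 1 of the 4. For each of the 4, replicate 2 was the higher library at 8 h. Its total intron count was 26851535, beside 21188542 in replicate 1. The 4 thus lean on the same library and are not separate observations. By the call rule 0 were called, beside 0%, 0%, 0.0136% and 0.00679%. In CGR8 introns Meis1 had 238 and 365 in control and 323 and 365 with IAA (0.18 ± 0.25, unadjusted p = 0.480). There 0 of 7 genes had an unadjusted p under 0.05, beside 5.24%, and 0 were called, beside 0.022%.

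In wtSRCAP and cdSRCAP cells the introns of Meis1 had 140 and 79 scaled counts in wtSRCAP control and 265 and 168 with IAA, then 170 and 208 in cdSRCAP control and 359 and 319 with IAA. IAA libraries thus lay above control in both lines, by 0.97 ± 0.31 (unadjusted p = 0.0122, adjusted p = 0.251) in wtSRCAP and 0.84 ± 0.30 (unadjusted p = 0.0196, adjusted p = 0.317) in cdSRCAP cells. The exon values of the same comparisons were 0.24 and 0.47. Pknox2 introns had 58 and 42 in wtSRCAP control, 145 and 92 with IAA, 165 and 107 in cdSRCAP control and 334 and 198 with IAA. Their log2 fold changes were 1.22 ± 0.38 upon IAA in wtSRCAP (unadjusted p = 0.00962), 0.97 ± 0.34 upon IAA in cdSRCAP (unadjusted p = 0.0194), and 1.44 ± 0.37 (unadjusted p = 0.00333) and 1.19 ± 0.35 (unadjusted p = 0.00801) for cdSRCAP over wtSRCAP in control and with IAA, with adjusted p from 0.241 to 0.328. Meis2 introns were 0.71 ± 0.25 (unadjusted p = 0.0191) and 1.02 ± 0.25 (unadjusted p = 0.00274, adjusted p = 0.252) in the same comparisons of the lines, and those of Meis1 0.79 ± 0.31 (unadjusted p = 0.0291) and 0.66 ± 0.30 (unadjusted p = 0.0545).

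Pbx4 introns went the other way in cdSRCAP cells, from 214 and 202 scaled counts to 86 and 122 with IAA (a fold of 0.500, log2 interval -1.54 to -0.47, unadjusted p = 0.00203, adjusted p = 0.143). In wtSRCAP cells they had 149 and 179 in control and 138 and 127 with IAA, and the difference between the lines was -0.69 ± 0.34 (unadjusted p = 0.0691). In the SYAT time course the intron columns also hold exonic reads, so Pbx4 values there are not a like measure to those of cdSRCAP cells. Pbx4 introns of the time course were not lower at the late times, with 55 and 110 in control, 202 and 180 at 6 h and 95 and 266 at 8 h. Log2 fold changes there were -0.12, 0.38, 1.20 and 1.13 over the 4 times (each ± 0.53), none with an unadjusted p under 0.05. Of 6 genes tested in introns, 2 had an unadjusted p under 0.05 upon IAA in wtSRCAP cells, 3 in cdSRCAP cells, 3 between the lines in control, 2 with IAA and 0 in the difference of the responses, beside 12.4%, 11.3%, 7.07%, 10.2% and 2.54% of 12702 genes. None was called with the low-count filter (7 were without it), beside 0.299%, 0.236%, 0.102%, 0.0157% and 0%.

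In sorted cells, 1 intron value passed the study's rule, Pknox2 in EG1, with deposited counts of 94 and 0 in control and 0 and 0 with IAA. It rests on 1 library and was lost without EG1 control replicate 1, and also without EG1 IAA replicate 1 or 2 or LG1 control replicate 1 or 2. This was 1 of 8 genes in EG1, beside 2.28% of 17441 genes, and 0 of 8 in LG1, beside 3.94%.

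**Figure D5:**
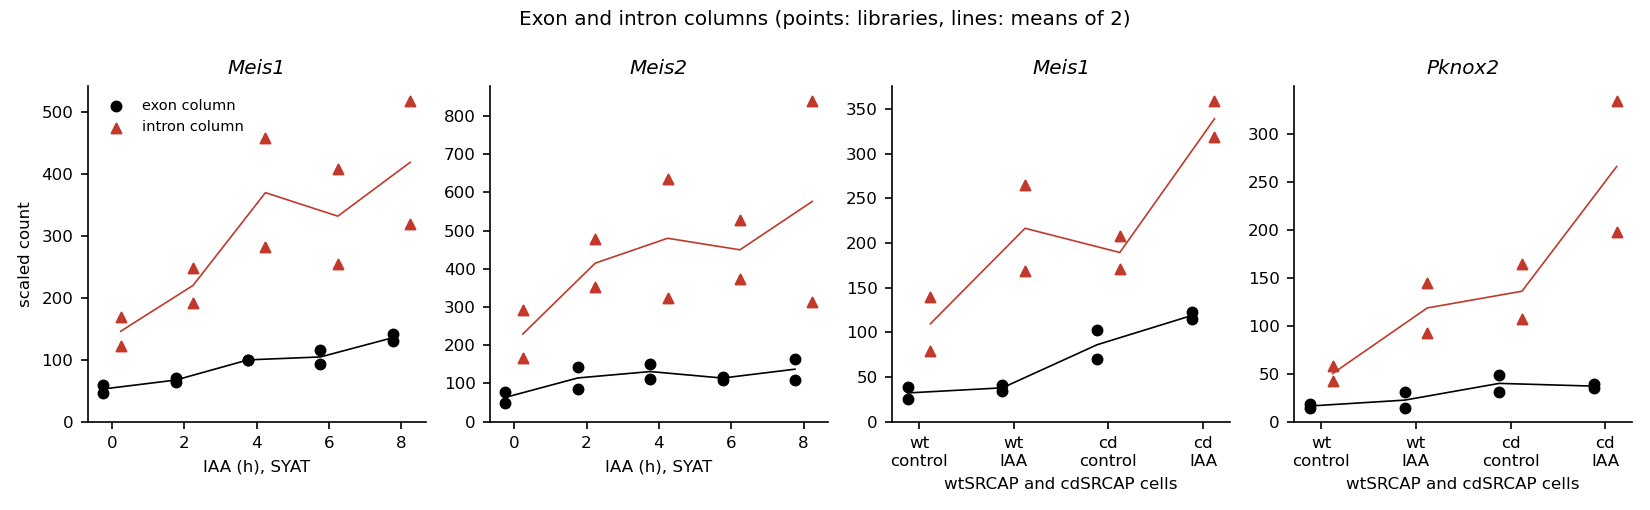
Scaled exon and intron counts side by side for Meis1 and Meis2 in the SYAT time course and for Meis1 and Pknox2 in wtSRCAP and cdSRCAP cells; lines join the group means and points are the 2 libraries. Meis1 intron points with IAA lie above the control points in SYAT cells at every time.

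Genes that work with these factors, taken from lists chosen with earlier results of these data known, were set beside them in exons. The other TALE homeobox genes (the Irx genes, Mkx, Tgif1 and Tgif2) had 2, 3, 2 and 1 of 9 members higher at an unadjusted p under 0.05 over the 4 SYAT times, 0 lower and 0 called, beside the 3.92%, 9.09%, 16.1% and 13.6% of all genes given above, so the count at 8 h is below that share. Irx3, a patterning factor of neural tissue, was among them at each time with log2 fold changes of 1.18, 1.20, 1.29 and 1.37. Summed over all 39 Hox genes, the partners of PBX, scaled counts were 204 and 159 in control and 293 and 275 at 8 h. Only 7 of the 39 passed the low-count filter. At 6 h 3 of these 7 were higher at an unadjusted p under 0.05, beside 16.1% of all genes. They were Hoxa10 (3.07 ± 0.85), Hoxd13 (0.80 ± 0.32) and Hoxb4 (2.11 ± 0.74), wide values on few counts. At 4 h 1 was lower, Hoxd1 (-1.62 ± 0.65), beside 9.09%, and at 2 h and 8 h 0 were higher or lower. Of 15 other partners and cofactors tested, 0, 1, 1 and 0 were higher over the 4 times (En1 at 4 h, 0.89, and Pou5f1 at 6 h, 0.41) and 0, 1, 0 and 2 lower (Crtc1 at 4 h, -0.47, then Pbxip1, which binds PBX proteins, at -0.54 and the deacetylase Hdac3 at -0.46 at 8 h). The 2 of 15 at 8 h stand beside 13.6% of all genes. En1 was also higher at an unadjusted p under 0.05 upon IAA in wtSRCAP cells and in cdSRCAP cells (0.99 in the latter), and Crtc1 (-0.64) and Gata4 (-1.91) were lower in the latter. Of all genes, 7.4% and 5.64% had such a p upon IAA in wtSRCAP and cdSRCAP cells.

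Among 13 tested genes that have been described as targets of MEIS or PBX, 1, 3, 2 and 3 were higher at an unadjusted p under 0.05 at 2, 4, 6 and 8 h and 0 were lower. The shares over all genes were 3.92%, 9.09%, 16.1% and 13.6%, and the count at 6 h is close to its share. At 8 h these were Fgf10, a limb and lung growth factor (1.80), Pax6, the eye regulator (0.90), and the hypoxia factor Epas1 (0.87). In wtSRCAP cells with IAA 4 of 12 were higher (Fgf10 2.57, Egr2 2.78, Pax6 0.82 and Epas1 0.78), beside 7.4% of all genes. In cdSRCAP cells 2 were (Pax6 0.86 and Epas1 0.63), beside 5.64%. In CGR8 cells, which carry no degron, 2 of 13 were higher, Nanog (0.63) and Pax6 (0.54), beside 9.16% of all genes. The median of the target list at 8 h was 0.35, beside 0.03 for all genes. At the same time the median was 0.26 for other TALE genes, 0.45 for Hox genes and -0.03 for other partners. Among marker lists it was 0.57 for mesoderm, 0.51 for trophectoderm, 0.45 for neural, 0.32 for primitive endoderm, 0.13 for ES cell and -0.04 for fibroblast markers. A raised median was thus not particular to the targets, whose median in CGR8 cells with IAA was 0.245. No gene of these 4 lists was called in the SYAT time course, in CGR8 cells or in wtSRCAP and cdSRCAP cells. In EG1 cells the study's rule for sorted cells was passed upon IAA by 1 of 16 other partners and cofactors tested. This was the forebrain factor Emx2 (1.72 ± 0.73, unadjusted p = 0.0474). Of the 9 other TALE genes, 9 Hox genes and 12 targets tested there 0 passed, beside 1.22% of all 21020 genes.

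The labelled cell type was checked in the same libraries. Summed ES cell markers were 46888 and 56836 scaled counts in SYAT control and 57661 and 56993 at 8 h. Primitive endoderm markers had 1112 and 1091 in control and 1313 and 1367 at 8 h, and mesoderm markers 324 and 221 and then 460 and 342. Neural markers had 6121 and 3882 and then 5997 and 3941, trophectoderm markers 409 and 371 and then 535 and 435, and fibroblast markers 2200 and 2239 and then 2431 and 2056. Markers of 2-cell-like cells had 7 and 11 in control and 24 and 4 at 8 h, with Tcstv1 at 0 in every library. At 8 h Gata6 (1.68, 1 of 7 primitive endoderm markers tested), Tdgf1 (ES cell, 0.48), Pax6 (neural, 0.90) and Thy1 (fibroblast, 0.39) were higher at an unadjusted p under 0.05. Pdgfrb (fibroblast, -1.38) was lower. The share over all genes was 13.6%. Of these lists, the ES cell, primitive endoderm, mesoderm and trophectoderm sums were larger in both 8 h libraries than in both control libraries, and their part in the Meis1 and Meis2 values was not tested. In sorted cells Cdc20 and Plk1, transcripts of mitosis, were higher in EG1 than in LG1 control (0.93 and 0.87) by the study's rule for these cells.

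The genes whose exon pattern over the 10 time-course libraries was most like that of a member are given as a description, by Pearson's r of log2 CPM, where libraries share depth and groups. For Meis1 they were Hmga2 (0.971) and Eif5 (0.967), and for Meis2 Gm27241 (0.981) and Pax6 (0.971), the target named above. Meis3 was most like Iqsec2 (0.958) and Mboat7 (0.949), Pbx2 most like Cpm (0.964) and Susd4 (0.940), and Pbx3 most like Inpp5f (0.964) and AC114539.1 (0.938). Pbx4 lay nearest Syt7 (0.945) and Vmn1r47 (0.939), Pknox1 nearest Six4 (0.970), and Pknox2 nearest Hrh1 (0.939) and 3830432H09Rik (0.932).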

How the data were processed

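Nuclear RNA-seq counts of 30 libraries were used. Per the study's methods, the authors mapped paired reads with STAR (genome mm10), and featureCounts gave counts over GENCODE vM25 exons and over introns, meaning whatever of a gene lies outside its exons (SAMtools and Picard are also in the submitters' processing notes). They deposited raw counts per gene as whole numbers, with 1 exon and 1 intron column per library in 4 tables, and a table of their own differential tests, which was not used. Samples were grouped from the labels. The genes and lists were chosen with earlier results of these data known.

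Each table and column was fitted with edgeR 4.0.16 in R 4.3.3 (TMM, filterByExpr with minimum count 10 and minimum total 15, glmQLFit, group means), p-values were adjusted by Benjamini-Hochberg over all genes tested, and intervals are 95%. Thresholds followed the study, which applied them to DESeq2 results with shrunken fold changes and showed intronic reads in its main figures. The edgeR values here were not shrunken, so the calls are not those of the study. The paper names Meis1 among the genes upregulated upon SRCAP depletion. The fit was tested on simulated data. All 8 genes were named, with further list genes chosen after their values were seen, and, for each of the 8, the 2 most alike genes, of which 1 is not reported here. Alternatives were a replicate block, DESeq2 1.42.0, RLE factors, no filter, introns minus exons and leaving out each library. Symbols came from an annotation that matched 55141 of 55401 identifiers. For scaled counts, each count was divided by its TMM library size over the geometric mean of these sizes in the table.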

Additional observations from a re-analysis of the deposited data

How the results depend on the processing

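Of 31 log2 fold changes with an unadjusted p under 0.05, 0 changed sign in any alternative. Of the 162 others, 80 did in at least 1. Calls of the 8 genes moved more. In SYAT exons edgeR without a block called 0, DESeq2 1 and the fit without a filter on low counts 1 (Meis1 at 8 h in both, adjusted p = 0.00477 and 0.0179). Leaving out single libraries gave 0 to 1, the latter without SYAT IAA 6 h replicate 1 or 2. In SYAT introns 0 were called and 2 with DESeq2. CGR8 exons gave 0, and 0 to 1 with single libraries left out (Meis1, without control replicate 2). Sorted exons gave 0, but 1 with RLE size factors, 1 without the filter and 0 to 1 with single libraries left out, always Meis1 in EG1 against LG1. Sorted introns gave 1, but 0 after subtracting exons and 0 to 1 with single libraries left out. wtSRCAP and cdSRCAP exons gave 0 and introns 0, the latter 7 without the filter. CGR8 introns gave 0 throughout. Where a group was left with 1 library, it was assumed to vary like the others. The cause of these moves was not tested.

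With the replicate number as a block, calls were 3 in SYAT exons with edgeR (Meis1 at 6 and 8 h, Meis2 at 8 h) and 4 with DESeq2, 4 in SYAT introns with DESeq2, 1 in sorted exons and 1 in wtSRCAP and cdSRCAP exons with either tool, and 6 (edgeR) or 7 (DESeq2) in wtSRCAP and cdSRCAP introns. The labels give groups the same numbers but do not say what a number shares. Deviations of same-numbered libraries correlated at 0.0736 in CGR8, -0.0359 to 0.589 in the time course, 0.372 to 0.586 in sorted and 0.259 to 0.376 in wtSRCAP and cdSRCAP cells, over 0.1 for every pair of groups in the last 2 sets. With 2 numbers a group this is a hint from the data and not from the design.

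Over all genes, exon calls at 6 h of IAA were 13, but 823 with the block, 566 with DESeq2, 1198 with both and 885 without the filter. At 8 h they were 1, 634, 380, 752 and 448, and in CGR8 cells 2, 500, 120, 390 and 386. Depth limits Pknox2 most, and also Pbx4, Meis3, Meis1 and Meis2, by their low counts, and with 2 libraries a group spread is estimated from few values.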
